A study of Mus musculus with 36 samples.

Results

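Dimethylation of lysine 36 of histone H3 (H3K36me2) was examined at 30788 intergenic regions of the mouse autosomes. The regions were chosen by the H3K36me2 islands of the 2 neurosphere Ctrl libraries: islands were merged where they overlapped or touched, a merged region had to hold an island in both libraries, and it could not overlap the body of a protein-coding gene extended by 2 kb on each side. An island is a stretch of the genome called by SICER, which joins windows enriched in reads over input DNA. Of 66094 merged regions with an island in both libraries, 35306 overlapped an extended gene body and the other 30788 were intergenic. The intergenic regions spanned 148.4 Mb, or 11.05% of the 1343 Mb of intergenic sequence outside assembly gaps. Because neurosphere Ctrl H3K36me2 chose the regions, its values at them are a description without a test.

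The libraries were made from mouse hippocampus at postnatal day 0 (P0) and from neurospheres, which are floating cultures of progenitors taken from P0 hippocampus and passaged with FGF2 and EGF before use. Ctrl animals were Kdm2bfl/+ or Kdm2bfl/fl, so that animals with 1 and with 2 floxed alleles stand under one name. The cKO animals were Kdm2bEmx1-delta-CxxC: Emx1-Cre removed the CxxC zinc finger of KDM2B, while the remaining parts of the protein can still be made. Emx1-Cre is active in the dorsal forebrain lineage, so other cells in the dissected hippocampus (vessels, microglia) keep an intact allele. Each of H3K36me2, H3K27me3 and H2AK119ub1 had 2 libraries per genotype and source, which gave 24 libraries.

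H3K36me2 is written by the NSD enzymes and by ASH1L, and the JmjC domain of KDM2A and of the long form of KDM2B removes it. It marks broad stretches of chromatin, reaches far into sequence between genes, and recruits the DNA methyltransferase DNMT3A there. On the same histone tail it hinders PRC2, the complex that writes H3K27me3. H2AK119ub1 is written by PRC1, and in variant PRC1.1 KDM2B tethers the complex to unmethylated CpG-rich DNA through the CxxC zinc finger.

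The sequence under these regions is shown for 4 of the 2378 intergenic regions with an island in all 8 H3K36me2 libraries. They are 4 of the 5 with the highest mean island density in hippocampus, and each line gives the central 200 bp in mm10, plus strand, 5′ to 3′, read from the reference genome. Capitals mark CpG dinucleotides, the site that a CxxC zinc finger reads when unmethylated.
Gm815 region, chr19:27039201-27039400: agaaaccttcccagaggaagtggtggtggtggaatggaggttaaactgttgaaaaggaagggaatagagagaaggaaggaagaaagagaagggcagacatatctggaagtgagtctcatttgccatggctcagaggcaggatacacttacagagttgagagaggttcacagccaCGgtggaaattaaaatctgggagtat
Ap1s3 region, chr1:79546001-79546200: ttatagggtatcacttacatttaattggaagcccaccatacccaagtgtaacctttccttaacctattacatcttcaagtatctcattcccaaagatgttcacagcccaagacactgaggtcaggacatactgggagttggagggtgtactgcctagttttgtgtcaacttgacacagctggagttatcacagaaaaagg
Inhbb region, chr1:119319301-119319500: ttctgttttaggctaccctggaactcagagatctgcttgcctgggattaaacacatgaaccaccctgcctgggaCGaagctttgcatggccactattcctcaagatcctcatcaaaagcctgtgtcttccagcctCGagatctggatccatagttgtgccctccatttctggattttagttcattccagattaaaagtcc
Nfib region, chr4:82717001-82717200: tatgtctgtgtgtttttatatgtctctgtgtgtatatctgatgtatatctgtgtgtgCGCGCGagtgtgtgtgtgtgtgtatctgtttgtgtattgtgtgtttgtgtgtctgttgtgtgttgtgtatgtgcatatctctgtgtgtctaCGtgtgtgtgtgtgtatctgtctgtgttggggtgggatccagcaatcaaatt
The Ap1s3 window held no CpG, the Gm815 window 1, the Inhbb window 2 and the Nfib window 4. The Gm815 region lay on chromosome 19 (27036601 to 27042000), 148.0 kb downstream of Gm815. The Ap1s3 region lay on chromosome 1 (79544001 to 79548200), 58.7 kb downstream of Ap1s3, a subunit of a clathrin adaptor, and the nearest start site was that of Scg2, a secretory granule protein. The Inhbb region lay on chromosome 1 (119312801 to 119326000), 89.5 kb downstream of Inhbb, which encodes an activin subunit, and it overlapped a long non-coding RNA gene. The Nfib region lay on chromosome 4 (82715601 to 82718600), 9.85 kb upstream of Nfib, a nuclear factor I of glial and hippocampal development.

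CpG content was then computed over the whole set. Pooled over all intergenic regions, GC content was 45.9% with 10.8 CpG per kb, and 28.9% of the bases were repeat-masked. Regions that overlapped genes were similar, with 46.8% GC and 12.1 CpG per kb. The 1195 Mb of other intergenic sequence had 40.3% GC and 6.75 CpG per kb, and 39.7% of it was repeat-masked. A CpG-rich 1 kb window (GC over 50%, and CpG over 0.6 of the number expected from the C and G content) was present in 269 intergenic regions (0.874%) and in 1052 gene-overlapping regions (2.98%).

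The libraries differed in ways that touch the values given here. Autosomal length covered ran from 115 to 161 Mb for hippocampus H3K36me2, from 54.6 to 304 Mb for H3K27me3 and from 37.3 to 319 Mb for H2AK119ub1, and counts in islands from 987329 to 22021439. Sources were checked at promoters in H3K27me3: Gata4, Myod1 and Pdx1, genes of other lineages, were fully covered in all 8 libraries, and the progenitor genes Sox2, Vim, Fabp7 and Sox9 had no island in any. The progenitor gene Nes was partly covered in 1 hippocampus library (23.1%) and in 2 neurosphere libraries (up to 13.1%). Of 2 genes of the oligodendrocyte lineage, Olig2 was fully covered in the 4 hippocampus libraries and bare in the 4 neurosphere libraries. The other, Pdgfra, was fully covered in all 8 libraries. Among neuronal promoters, Neurod2 was covered over 68.8% to 100% in hippocampus and fully in neurospheres, Snap25 and Neurod6 had an island in 2 of 4 libraries of each source, and Tubb3 was bare in hippocampus and had an island in 2 of 4 neurosphere libraries. The endothelial Cldn5 and microglial Cx3cr1 were covered in at least 1 library of each source, while Pecam1 and Aif1 were bare. The part of library size and cell makeup in the differences between groups was not tested.

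Intergenic regions were mostly narrow, and a minority of wide ones held much of the length. The median width was 3.2 kb, with 5% of regions under 0.8 kb and 5% over 13.8 kb. Gene-overlapping regions had a median of 4.2 kb. The 3119 regions of 10 kb or more made up 10.1% of the intergenic regions and 35.4% of their length. Regions lay close together: 61.1% of the gaps between neighbouring regions were under 10 kb, with a median gap of 6 kb. The median distance to the nearest protein-coding gene body was 70.7 kb, 41.7% of regions lay within 50 kb of one, and 1742 regions (5.66%) were more than 500 kb away.

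**Figure D1:**
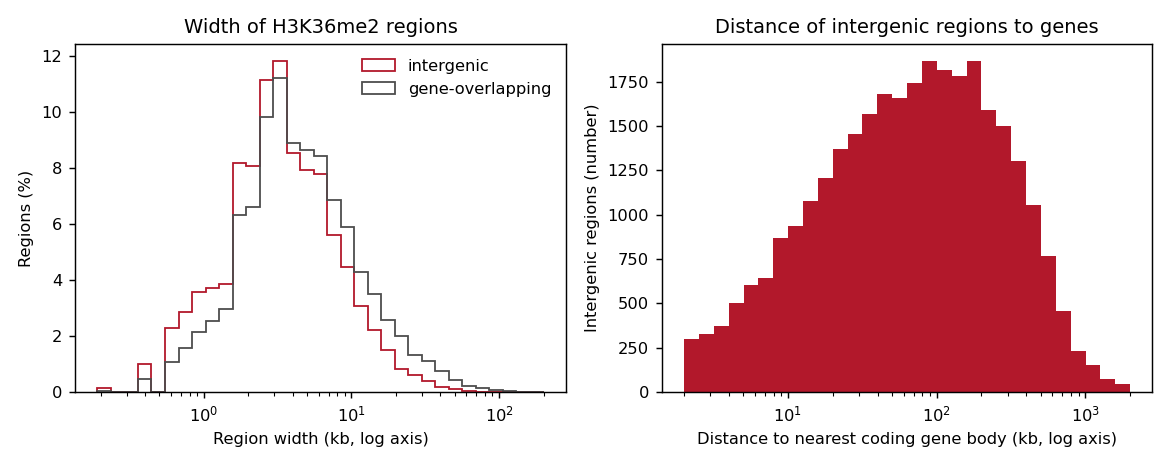
Left, width of intergenic (red) and gene-overlapping (grey) H3K36me2 regions as the percentage of each set per width class (kb, log axis). Right, number of intergenic regions by distance to the nearest protein-coding gene body (kb, log axis); the median width was 3.2 kb and the median distance 70.7 kb.

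Annotated genes of other kinds overlapped some of the regions. Long non-coding RNA genes overlapped 5536 intergenic regions (17.98%), pseudogenes 1360 (4.42%) and miRNA genes 104 (0.338%), while 23655 regions (76.8%) overlapped no annotated gene. Slightly more regions lay upstream of the nearest gene (16486, 53.5%) than downstream (14302, 46.5%). Across chromosomes, the share of intergenic sequence inside the regions ran from 7.78% on chromosome 5 to 14.8% on chromosome 13. The regions nearest to the 2 kb limit were beside Gsk3b at 2000 bp, Ptch1 at 2002 bp and Tgif1 at 2004 bp. Regions just outside the rule lay 1999 bp from Prr15, 1998 bp from Csad and 1997 bp from C1qtnf7.

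The widest intergenic region spanned 166.6 kb on chromosome 17 (83883801 to 84050400), 35.8 kb upstream of Haao, an enzyme of tryptophan breakdown. In neurospheres H3K36me2 islands covered 97.4% and 98.7% of it in the Ctrl libraries against 95.6% and 88.0% in the cKO libraries. Hippocampus covered less of it, with 34.9% and 23.4% in Ctrl against 40.6% and 34.8% in cKO.

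A region of 92.4 kb on chromosome 12 (25108201 to 25200600) began 11.1 kb upstream of Id2, an inhibitor of basic helix-loop-helix factors in neural progenitors. Its H3K36me2 coverage was 95.5% and 99.1% in neurosphere Ctrl, and 84.4% and 27.7% in cKO replicates 1 and 2. In hippocampus it was 60.6% and 46.3% in Ctrl against 68.4% and 69.5% in cKO. The cKO libraries were therefore the higher pair in hippocampus and the lower pair in neurospheres at this locus. The neurosphere Ctrl islands chose the region, which favoured the lower cKO values there in advance.

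The related gene Id3 had a region of 76.8 kb on chromosome 4 (136064601 to 136141400), 2.1 kb upstream. H3K36me2 covered 90.1% and 90.9% of it in neurosphere Ctrl, and 97.1% and 47.1% in cKO. Hippocampus had 33.6% and 34.6% in Ctrl against 47.9% and 58.1% in cKO. The 108.4 kb region upstream of Azi2 on chromosome 9, the 107.4 kb region upstream of Sulf2 on chromosome 2, and those beside Tomm20 (99.8 kb), Klf13 (85.2 kb) and Disc1 (82.6 kb) completed the 8 widest. All 8 held an H3K36me2 island in all 8 libraries of the mark.

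The regions farthest from genes were narrow and lay together on chromosome 2, in the gap between Zeb2 and Acvr2a. The 8 farthest were 0.2 to 2.4 kb wide and 1804 to 1848 kb from the nearest gene body. None of them held an H3K36me2 island in a hippocampus library. The farthest, at 46966001 to 46966400, was fully covered in both neurosphere Ctrl libraries, at 107.5 and 122.5 counts per kb, and had no island in any other library. The region at 46936801 to 46938200 was fully covered in all 4 neurosphere libraries, at 60.7 and 53.6 counts per kb in Ctrl against 42.1 and 35.0 in cKO.

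Genes beside the most intergenic regions included transcription factors and signalling genes. Of 20807 autosomal protein-coding genes, 4744 (22.8%) were the nearest gene to at least 1 intergenic region, with a median of 3 regions each. Zeb2, a zinc finger repressor of neural crest and cortical development, came first with 121 regions summing to 260.2 kb. Adgrl2, an adhesion receptor of synapses, followed with 115, the zinc finger gene Zfp608 with 108, and Tbl1xr1, a subunit of nuclear receptor corepressors, with 106. Nova1, a neuronal splicing factor, also had 106. Sox9, which drives progenitor and glial fate, had 104, Pik3r1, a regulatory subunit of PI3-kinase, 102, and Sox11, a factor of young neurons, 93. Ndufa4, a mitochondrial protein, had 92, and Myc, a factor of growth and proliferation, 86.

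Counts of regions depend on how much intergenic sequence lies beside a gene. Each gene was therefore given the intergenic sequence that is nearer to it than to any other protein-coding gene. Intergenic regions filled 56.0% of the 1.08 Mb of Sox9, and 36.3% of the 0.882 Mb of Pik3r1. They filled 35.0% of the 0.971 Mb of Sox11 and 28.6% of the 1.17 Mb of Zfp608. The share was 13.9% of 1.87 Mb for Zeb2 and 8.09% of 2.09 Mb for Nova1, against 11.05% over all intergenic sequence. Sox9 was thus densely covered, while the high count of Nova1 went with a long desert.

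**Figure D2:**
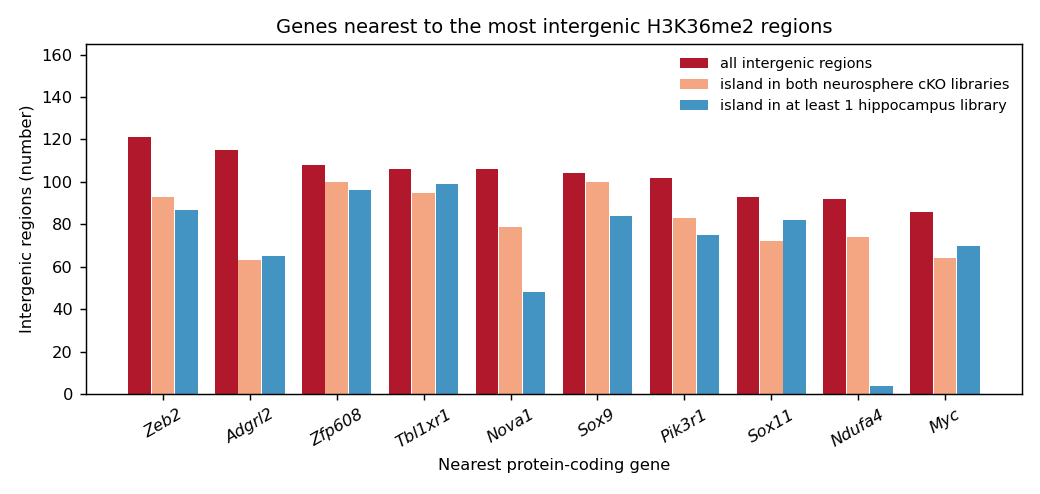
Number of intergenic H3K36me2 regions nearest to each of the 10 genes with the most regions (red), and how many of these held an H3K36me2 island in both neurosphere cKO libraries (orange) or in at least 1 of 4 hippocampus libraries (blue). Beside Ndufa4 only 4 of 92 regions held a hippocampus island, against 99 of 106 beside Tbl1xr1.

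Presence in hippocampus differed widely among these genes. Beside Tbl1xr1, 99 of 106 regions held an island in at least 1 hippocampus library, and beside Zfp608, 96 of 108. Beside Nova1 the number was 48 of 106 and beside Ndufa4 4 of 92. Over the Ndufa4 regions, hippocampus H3K36me2 covered 2.3% and 1.15% in Ctrl against 1.38% and 1.84% in cKO. Neurosphere cKO covered 74.3% and 81.7% of the same regions. Over the Sox9 regions, hippocampus coverage was 35.5% and 29.7% in Ctrl against 38.4% and 41.3% in cKO, and neurosphere cKO coverage was 77.8% and 90.9%. The tissue holds neurons and non-neural cells beside progenitors, and in a bulk sample fewer cells with a mark and less of the mark per cell cannot be told apart. Hippocampus H3K36me2 libraries also held fewer counts in islands than the neurosphere ones, and the part of this in missing islands was not tested.

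Gene lists of neural development were described by their counts, without a test of the difference from all genes. Of 28 autosomal progenitor transcription factors, 21 (75%) were nearest to an intergenic region, against 22.8% of all genes. Their median intergenic sequence was 123 kb, against 13.0 kb over all genes. The median share of it inside intergenic regions was 28.7%, against 0% over all genes that had any. Sox2, the factor that maintains neural stem cells, had 82 regions summing to 610.2 kb, which filled 73.5% of its 0.831 Mb. Pou3f3 had 81 regions and the patterning factor Nr2f1 63, but the last was filled to only 8.6%.

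Neuron transcription factors gave 17 of 26 (65.4%), with a median of 24 regions for each of the 17. Beside Zeb2 and Sox11 these were Lmo4 with 76 regions, Tcf4 with 70 and Mef2c with 52. Tcf4, a partner of proneural factors, was filled to 44.9% and Mef2c, a factor of maturing neurons, to 6.74%. Nuclear factor I and glial genes gave 16 of 24 (66.7%). Id2 and Nfib had 40 regions each, Pdgfra, the receptor of oligodendrocyte precursors, 28, Ptprz1 25 and Zbtb20, a determinant of hippocampal identity, 22. Over the Nfib regions, hippocampus coverage was 37.4% and 30.2% in Ctrl against 35.7% and 28.7% in cKO. Over the Pdgfra regions it was 8.78% and 5.55% in Ctrl against 13.3% and 13.1% in cKO, so the cKO pair was higher there.

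The Wnt pathway gave 22 of 51 genes (43.1%), with a median intergenic sequence of 36.3 kb and a median share of it inside intergenic regions of 0%, as over all genes. Fzd1, a receptor, had 27 regions, the ligand Wnt5a 20, the effector Tcf7l2 18, the feedback inhibitor Axin2 9 and the effector Lef1 6. The regions of Tcf7l2 summed to 179.4 kb and filled 77.0% of its 0.230 Mb, the highest share among the Wnt genes named. Hippocampus H3K36me2 covered 54.9% and 35.8% of the Wnt5a regions in Ctrl against 54.1% and 57.7% in cKO. For Axin2 the values were 48.4% and 42.4% in Ctrl against 45.0% and 52.2% in cKO. At both genes the Ctrl and cKO values overlapped. For Tcf7l2 they were 28.1% and 12.9% in Ctrl against 27.4% and 18.1% in cKO, again overlapping. The Fzd1 values, 13.5% and 25.6% in Ctrl against 12.4% and 31.8% in cKO, overlapped too. Over the 6 Lef1 regions they were 29.7% and 21.4% in Ctrl against 38.0% and 47.4% in cKO. The cKO pair was thus the higher at Lef1 in hippocampus, which was not tested. In neurospheres the Lef1 values overlapped, with 80.2% and 96.4% in Ctrl, which chose the regions, against 82.8% and 39.1% in cKO.

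EGF, FGF and Notch genes gave 15 of 28 (53.6%). Spry2, an inhibitor of receptor tyrosine kinase signalling, had 43 regions, the receptor Erbb4 41, the FGF-responsive factor Etv1 30, the Notch ligand Jag1 26 and Fgfr2 25. Erbb4 resembled Ndufa4: its regions were covered in hippocampus over 3.36% and 2.58% in Ctrl against 1.29% and 0% in cKO. Adhesion and guidance genes gave 32 of 45 (71.1%), but their median intergenic sequence was 1069 kb and only 1.25% of it was filled. The guidance receptors Epha4 and Epha5 had 54 and 52 regions, Lsamp 25 and Opcml 24. Enzymes of H3K36 and Polycomb gave 7 of 24 (29.2%), with a median of 1 region each. Those with the most were Eed with 8, Smyd2 with 4, Rnf2 with 2, and Phf19 and Suz12 with 1 each.

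The question of how far intergenic H3K36me2 of cultured progenitors is shared by the tissue was taken up over all regions. In hippocampus, H3K36me2 covered 23.9% and 16.9% of the intergenic regions in Ctrl against 23.2% and 22.3% in cKO. Other intergenic sequence was covered over 5.41% and 3.81% in Ctrl against 4.7% and 4.96% in cKO. Gene-overlapping regions lay between, at 14.8% and 10.6% in Ctrl against 16.9% and 15.5% in cKO. Over the 6 H3K36me2 libraries that did not choose the regions, intergenic regions exceeded other intergenic sequence by 28.9 percentage points (SD 19.8, 6 of 6 libraries higher, two-sided exact sign-flip permutation p = 0.03125, the smallest that 6 libraries allow). These 6 include the 2 neurosphere cKO libraries, so the mean and p are not those of the tissue alone. Differences ran from 13.1 points in hippocampus Ctrl replicate 2 to 62.7 in neurosphere cKO replicate 1. Other intergenic sequence is what the rule left outside the regions, which favoured a positive difference in advance. The intergenic regions exceeded gene-overlapping regions by 5.42 points (SD 6.16, 5 of 6 higher, exact p = 0.125), which did not pass. Neurosphere cKO replicate 1 was the exception, with 69.8% of intergenic and 76.4% of gene-overlapping sequence covered.

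**Figure D3:**
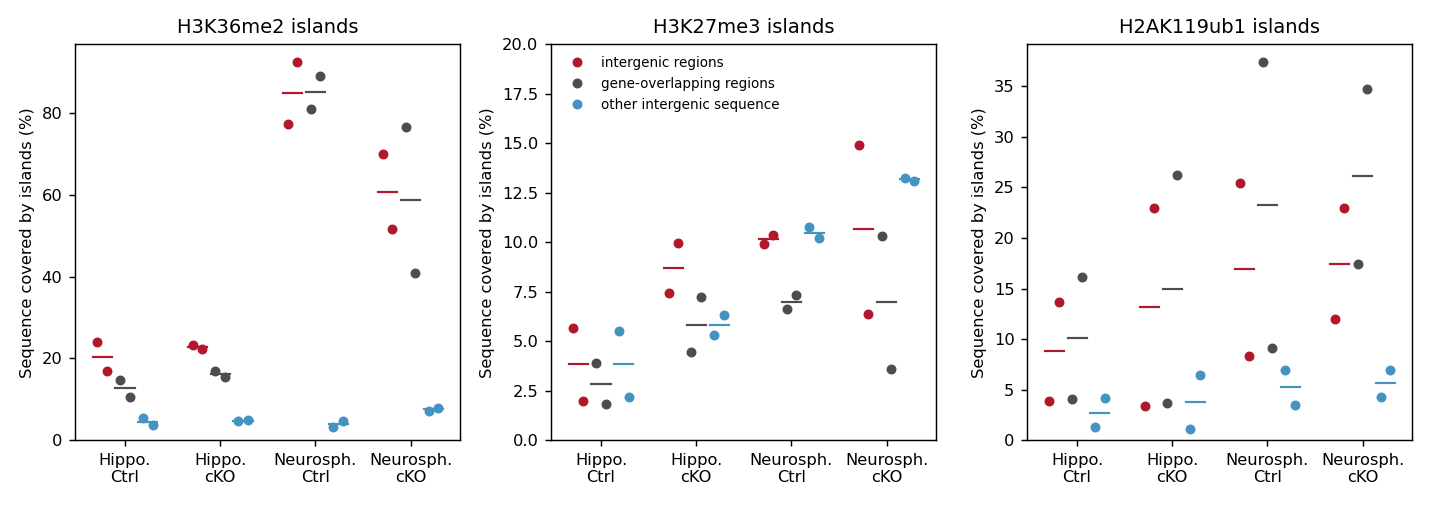
Percentage of sequence covered by islands of each mark in hippocampus (Hippo.) and neurosphere (Neurosph.) libraries, for the intergenic H3K36me2 regions (red), the gene-overlapping H3K36me2 regions (grey) and other intergenic sequence (blue). Each point is 1 library and each bar the mean of 2. The vertical scales differ between marks: H3K36me2 reached 23.9% of the intergenic regions in hippocampus, while H2AK119ub1 ranged from 3.37% to 25.5%.

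Single regions were shared unevenly. A hippocampus H3K36me2 island was found in none of the 4 libraries at 11507 intergenic regions (37.4%), in 1 library at 7228, in 2 at 5383, in 3 at 3898 and in all 4 at 2772 (9.0%). Regions shared by all 4 were wide, with a median of 8600 bp, against 2400 bp for those without a hippocampus island. A wide region can hold an island by its length alone, and the part of length in the sharing was not tested. Hippocampus H3K36me2 libraries held 3109819 to 4504325 counts in islands, against 10587042 to 22021439 in neurospheres. A region without a hippocampus island is thus not shown to lack the mark, and the part of library size was not tested. Coverage rose with width in each hippocampus library. In regions under 2 kb the hippocampus libraries covered 13.5% to 18.2%, and in those of 10 kb or more 19.3% to 28.1%. Among regions with an island in all 8 H3K36me2 libraries, the densest in hippocampus lay beside Gm815, Ap1s3, Inhbb, Gramd3, Nfib, Ermard, Dleu7 and Rfpl4b. At the Nfib region the hippocampus islands covered 100% and 13.3% in Ctrl against 60.0% and 73.3% in cKO, at 34.5 and 50 counts per kb in Ctrl against 36.7 and 29.0 in cKO. The highest density there thus came from the library with the smallest covered share.

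**Figure D4:**
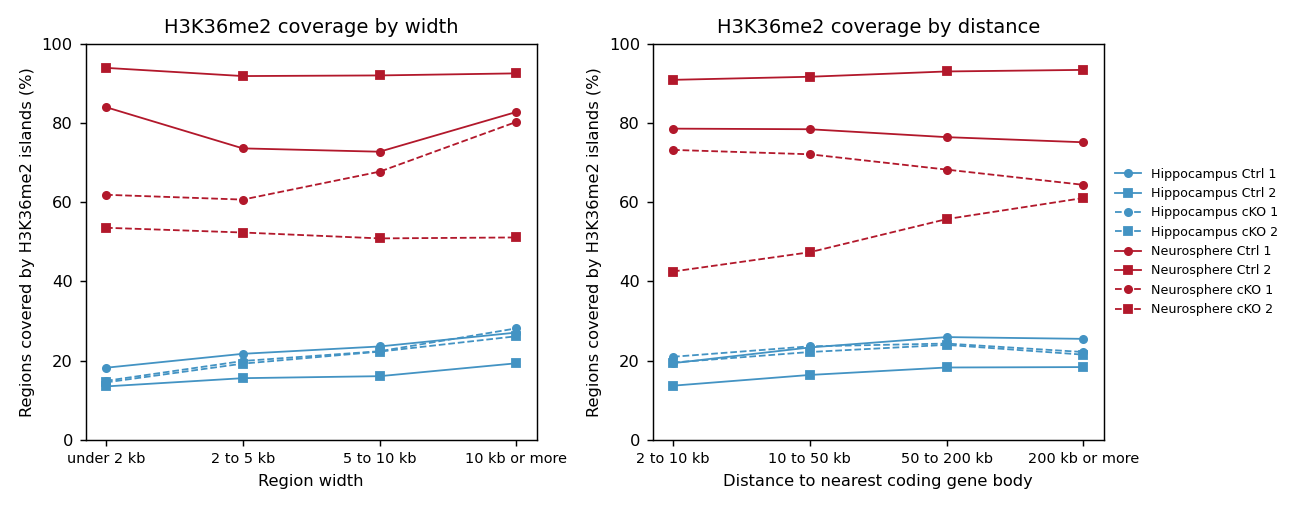
Percentage of the intergenic H3K36me2 regions covered by H3K36me2 islands, by region width (left) and by distance to the nearest protein-coding gene body (right). Each line is 1 library: hippocampus in blue, neurospheres in red, Ctrl solid, cKO dashed, replicate 1 as circles and replicate 2 as squares. With distance, neurosphere cKO replicate 1 went from 73.2% to 64.4% and replicate 2 from 42.5% to 61.1%.

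Loss of the CxxC domain was then compared at the regions. In neurospheres, H3K36me2 covered 77.3% and 92.3% of the intergenic regions in Ctrl against 69.8% and 51.5% in cKO, which is 24.1 points lower on average. Gene-overlapping regions, which the same libraries chose, went from a mean of 85.0% in Ctrl to 58.7% in cKO. Other intergenic sequence was covered more in cKO, with 3.26% and 4.84% in Ctrl against 7.15% and 7.97% in cKO. These values are a description: a set chosen by islands in both Ctrl libraries starts from high Ctrl values. Other intergenic sequence excludes the intergenic regions chosen in this way, which lowered its Ctrl values, but not its cKO values, in advance. Of the regions, 19517 (63.4%) held an island in both cKO libraries, 8690 (28.2%) in 1 and 2581 (8.38%) in neither. When the same rule was applied to the 2 cKO libraries instead, it gave 22821 regions, of which 1337 (5.86%) held no island in either Ctrl library.

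The 2 neurosphere cKO libraries also differed from each other. Their coverage was 73.2% and 42.5% at regions 2 to 10 kb from a gene, and 64.4% and 61.1% at 200 kb or more. Replicate 1 was therefore lower and replicate 2 higher far from genes. Their totals also differed, with 496 and 349 Mb covered on the autosomes, against 370 and 431 Mb in Ctrl. The part of these differences in the lower cKO coverage was not tested.

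The 5 widest regions with no neurosphere cKO island lay beside Adcyap1r1, Cct6b, Pard3, Glis3 and Gmds, and were 10 to 14.4 kb wide. The widest, on chromosome 6 (55547201 to 55561600), lay 45.7 kb downstream of Adcyap1r1, the receptor of the neuropeptide PACAP. Its H3K36me2 coverage was 51.4% and 93.1% in neurosphere Ctrl and 0% in both cKO libraries. H3K27me3 covered 8.33% and 0% of it in neurosphere Ctrl and 100% and 88.9% in cKO. At this region the H3K27me3 groups did not overlap, and the cKO pair was the higher. The Cct6b region on chromosome 11 (82660801 to 82673000) had H3K27me3 over 0% and 77.0% in Ctrl against 68.9% and 63.9% in cKO, which overlap. The Glis3 region on chromosome 19 (28726601 to 28737000) went the other way, with 82.7% and 59.6% in Ctrl against 34.6% and 38.5% in cKO. Glis3 is a zinc finger transcription factor. At the Gmds region no H3K27me3 island was present in any library, and at the Pard3 region only in neurosphere cKO replicate 1, over 25%.

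In hippocampus, H3K36me2 coverage of the intergenic regions was 2.33 points higher in cKO (20.4% ± 4.97 in Ctrl against 22.7% ± 0.672 in cKO, SD, n = 2 each), with overlapping libraries (two-sided exact permutation p = 1). With 2 libraries against 2, this test cannot go below 0.333. Leaving out Ctrl replicate 2 turned the difference to -1.19.

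Read counts of single regions were tested next. Islands of the 4 libraries of a mark and source were merged, on the autosomes and on chromosomes X and Y. Merged regions with an island in all 4 were fitted together with the quasi-likelihood test of edgeR. No region passed a false discovery rate (FDR) of 0.05 in any of the 6 comparisons (0% called of 2750 to 34454 tested). Merged regions that lacked an island in any library were not tested, so this result does not speak of islands lost or gained whole. In hippocampus, 3025 of the 6447 tested H3K36me2 regions overlapped an intergenic region. At an unadjusted p under 0.05, 140 of them (4.63%) were called, against 4.93% of all tested, and the lowest adjusted p was 0.209. In neurospheres, 315 of 15624 (2.02%) were called, against 2.14% of all, a contrast that the choice of regions used. At an FDR of 0.05 the DESeq2 Wald test called 8 of the 3025 in hippocampus, against 20 of all 6447. In neurospheres it called 30 of the 15624, against 83 of all 34454. The direction in neurospheres depended on the overlap asked for. The edgeR median log2 fold change (cKO over Ctrl) was 0.0601 at the 15624, against 0.0109 over all tested, and 126 of the 315 were lower in cKO. Where at least 50% of a tested region had to lie inside intergenic regions, the median was -0.0639. Of those 11675, 142 (1.22%) were called at an unadjusted p, 125 of them lower in cKO. Without neurosphere cKO replicate 1, the median with any overlap was 0.153, against 0.0219 over all tested. Without replicate 2 it was -0.0331, against 0.00704.

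H3K27me3, the mark written by PRC2, was sparse in the intergenic regions. In neurospheres it covered 9.89% and 10.4% in Ctrl against 14.9% and 6.4% in cKO, and in hippocampus 5.69% and 2.01% in Ctrl against 7.42% and 9.97% in cKO. In each of the 8 libraries this was more than in gene-overlapping H3K36me2 regions, by 2.66 points on average (SD 1.27, two-sided exact sign-flip permutation p = 0.0078125, the smallest that 8 libraries allow). Against other intergenic sequence the mean difference was 0.000124 points (SD 3.07, 5 of 8 higher, exact p = 1).

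The hippocampus Ctrl and cKO libraries did not overlap, with cKO 4.84 points higher (two-sided exact permutation p = 0.333, the smallest possible). When all libraries were trimmed to equal covered length, the difference was 0.430 points. The intergenic regions took 6.85% and 5.47% of the H3K27me3-covered length in Ctrl against 9.02% and 9.27% in cKO. Stratified over both sources, the difference was 2.68 points (exact p = 0.278). In neurospheres alone it was 0.523 points with overlapping libraries, and it turned to -2.06 at equal covered length and to -3.74 without cKO replicate 1.

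**Figure D5:**
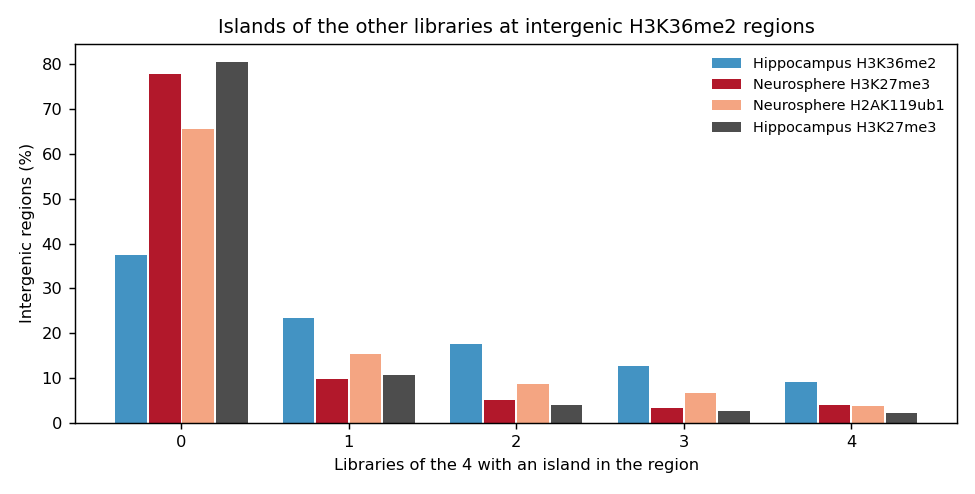
Percentage of the intergenic H3K36me2 regions that held an island in 0 to 4 of the 4 libraries (2 Ctrl and 2 cKO) of hippocampus H3K36me2 (blue), neurosphere H3K27me3 (red), neurosphere H2AK119ub1 (orange) and hippocampus H3K27me3 (grey). No neurosphere H3K27me3 island was present at 77.9% of regions, and 4.04% held one in all 4 libraries.

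Most intergenic regions were free of one Polycomb mark or both. No neurosphere H3K27me3 island was present at 23978 regions (77.9%), and none of the 16 Polycomb libraries had an island at 14522 (47.2%). H3K27me3 was present in all 4 neurosphere libraries at 1245 regions (4.04%), H2AK119ub1 at 1171 (3.8%), and both at 504 (1.64%). Regions with H3K27me3 in all 4 were nearer to genes (median 41.5 kb) and wider (median 7000 bp) than the whole set. H3K36me2 islands in both neurosphere cKO libraries were found at 47.4% of those 1245, against 63.4% of all intergenic regions.

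H3K27me3 was set side by side in tissue and culture beside some genes. Over the regions of Adgrl2 it covered 29.9%, 8.66%, 43.3% and 36.5% in hippocampus (Ctrl replicates 1 and 2, then cKO replicates 1 and 2), and 1.98% to 5.32% in the 4 neurosphere libraries. Over those of Tcf7l2 the hippocampus values were 41.8%, 5.24%, 41.4% and 46.0%, and the neurosphere values ran from 2.9% to 10.8%. The sources did not overlap at Adgrl2 and overlapped at Tcf7l2. In both cases hippocampus Ctrl replicate 2, which had the least H3K27me3 in all, was the lowest of its source. The Pdgfra regions differed within neurospheres, with 2.62% and 3.08% in Ctrl against 41.3% and 26.0% in cKO, while hippocampus had 11.9% to 38.1%. Tbl1xr1 regions held no H3K27me3 in any of the 8 libraries. These genes were singled out after their values were seen, and no test was made.

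H2AK119ub1 covered less of the regions at 200 kb or more than at 2 to 10 kb from a gene in each neurosphere library, and more in each hippocampus library. In neurospheres, at 2 to 10 kb from a gene it covered 30.9% and 8.68% in Ctrl against 15.7% and 28.4% in cKO. At 200 kb or more it covered 16.2% and 7.64% in Ctrl against 8.18% and 13.99% in cKO. In hippocampus it went from 3.11% to 4.55% and from 11.6% to 13.5% in Ctrl, and from 2.79% to 3.64% and from 20.1% to 22.1% in cKO. Hippocampus coverage was highest between, at 50 to 200 kb, with 4.59% and 15.8% in Ctrl against 3.92% and 25.6% in cKO. The share of regions with a hippocampus island went the other way between the end classes. It fell from 8.28% to 6.27% and from 14.9% to 10.5% in Ctrl, and from 7.22% to 5.35% and from 25.8% to 18.3% in cKO. Median width fell from 4200 bp at 2 to 10 kb from a gene to 2200 bp at 200 kb or more, and neurosphere coverage was 2.1% to 3.88% in regions under 2 kb against 11.6% to 43.3% in those of 10 kb or more. The part of width in the change with distance was not tested.

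The widest region with H3K27me3 in all 4 neurosphere libraries lay 67.9 kb upstream of Sulf2, a sulfatase that trims heparan sulfate and thereby tunes Wnt and FGF signalling. It spanned 107.4 kb on chromosome 2 (166223601 to 166331000), and all 24 libraries had an island in it, which held for 9 intergenic regions in all. In neurospheres H3K27me3 covered 96.1% and 95.5% of it in Ctrl against 97.4% and 69.1% in cKO. H3K36me2 covered 91.2% and 98.3% in Ctrl against 93.3% and 4.47% in cKO. The cKO replicates thus stood far apart in H3K36me2 at this locus. In hippocampus H3K27me3 covered 21.6% and 1.49% of it in Ctrl against 16% and 27% in cKO.

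The region beside Disc1 had H3K27me3 over 42.1% and 33.7% in neurosphere Ctrl and 28.8% and 12.6% in cKO, with the cKO pair lower. The region beside Rhob, a small GTPase, was covered over 46.7% and 54.4% in Ctrl against 49.6% and 33.4% in cKO, and had no H3K27me3 island in hippocampus. The region beside Gm6569 had 6.13% and 37.7% in Ctrl against 62.9% and 6.45% in cKO.

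At the level of read counts, 1323 of the 11262 H3K27me3 regions tested in neurospheres overlapped an intergenic region. At an unadjusted p under 0.05, 325 of them (24.6%) were called by edgeR, 178 of these lower in cKO, against 18.4% of all tested. Where at least 50% of a tested region had to lie inside intergenic regions, 92 of 493 (18.7%) were called, which is near the background. DESeq2 called 113 of the 1323 at an FDR of 0.05, against 738 of all 11262 tested. Without cKO replicate 1 the edgeR median log2 fold change (cKO over Ctrl) at intergenic regions was -0.217, against 0.0199 over all tested. Without cKO replicate 2 it was 0.001, against 0.0188. In hippocampus, 16 of 648 (2.47%) were called at an unadjusted p, against 3.53% of all.

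H2AK119ub1, the PRC1 mark, covered more of the intergenic regions than of other intergenic sequence in each of 8 libraries. The values were 3.89% and 13.7% in hippocampus Ctrl, 3.37% and 23.0% in hippocampus cKO, 25.5% and 8.36% in neurosphere Ctrl, and 12.01% and 23.0% in neurosphere cKO. Replicates of a group stood further apart than the genotypes in both sources. The excess over other intergenic sequence was 9.74 points on average (SD 6.54, two-sided exact sign-flip permutation p = 0.0078125). Gene-overlapping regions were covered more in each library, by 4.51 points on average (SD 4.85, exact p = 0.0078125). Among regions of 2 to 10 kb that difference was -0.399 points and did not pass (exact p = 0.3125). The cKO minus Ctrl difference was 4.38 points in hippocampus and 0.570 in neurospheres, with overlapping libraries in each (exact permutation p = 1), and 2.48 stratified over both (exact p = 0.722).

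Few single H2AK119ub1 regions were called. In hippocampus 10 of 587 (1.7%) were called by edgeR at an unadjusted p under 0.05, against 1.09% of all, and in neurospheres 16 of 1259 (1.27%), against 1.67%. DESeq2 called 0 of 587 and 2 of 1259 at an FDR of 0.05, against 0 of 2750 and 32 of 6060 over all tested. Without neurosphere Ctrl replicate 1, the edgeR median log2 fold change (cKO over Ctrl) was 0.0226 at intergenic regions, against -0.0166 over all tested. At the Haao region, H2AK119ub1 coverage in hippocampus was high in replicate 2 and low in replicate 1 of both genotypes, with 11.04% and 85.8% in Ctrl against 13.7% and 88.1% in cKO.

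The 269 CpG-rich intergenic regions, the kind of DNA that a CxxC zinc finger reads when unmethylated, were compared as a description. H2AK119ub1 covered 44.0% and 7.93% of them in neurosphere Ctrl and 16.8% and 34.7% in cKO. In hippocampus the values were 7.49% and 27.2% in Ctrl against 4.75% and 35.9% in cKO. H3K27me3 covered 9.22% and 15.0% in neurosphere Ctrl and 23.3% and 3.27% in cKO. The genotypes overlapped in each of these comparisons. H3K36me2 covered 88.1% and 89.8% of them in neurosphere Ctrl and 83.3% and 42.0% in cKO.

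Within islands, read density at intergenic regions was compared with that of all autosomal islands of the same library. The ratio was below 1 in all 8 H3K27me3 libraries. It ran from 0.996 to 1.05 for H3K36me2, from 0.761 to 0.954 for H3K27me3 and from 0.865 to 1.0 for H2AK119ub1. Median H3K36me2 densities at the regions were 27.5 to 29.2 counts per kb in hippocampus, and 55.0 and 48.0 in neurosphere Ctrl against 45.9 and 31.4 in neurosphere cKO.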

How the data were processed

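ChIP-seq of H3K36me2, H3K27me3 and H2AK119ub1 was analysed in 24 libraries, grouped by the sample labels. The authors aligned reads to mm10 with Bowtie2 2.4.5, removed duplicates, and called islands per library with SICER against input (window 200 bp, gap 600 bp, FDR 0.01). The deposited files give whole read counts per island, not normalised by the authors; positions outside islands have no value, and counts in islands are not the sequencing depth, which is unknown. The 12 inputs were not used.

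Regions were built as the report states, with protein-coding genes of GENCODE vM21 and sequence of GRCm38 (mm10). The covered share is the percentage of bases inside islands. Where an island ran past a region, its counts were shared out by overlap. Covered shares were compared by two-sided exact permutation of libraries, and region counts by edgeR 4.0.16 (TMM, Benjamini-Hochberg over all regions) in R 4.3.3, with DESeq2 1.42.0 as an alternative. Python 3.11.15 and numpy 2.4.6 served for interval arithmetic. Code was tested on simulated data. No source says that replicates came from separate animals, so p-values measure the spread between these libraries. Counts carry no molecular identifiers.

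The regions, gene lists and tests were chosen with earlier results of these data known. Named regions were, by rule, the 8 widest, the 8 farthest from a gene, the 8 densest in hippocampus with an island in all 8 H3K36me2 libraries, the 5 widest with H3K27me3 in all 4 neurosphere libraries and the 5 widest without a neurosphere cKO island. Named genes were the 10 nearest to the most regions and up to 5 per list. Some regions and genes that these rules name are not reported here. Alternatives covered the rule, island length, dense islands, normalisation, tool, low counts, overlap, replicate block and each library left out.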

Additional observations from a re-analysis of the deposited data

Results flagged for a closer look

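Chromosome X was outside the rule. By the same criteria it held 65 regions of 0.164 Mb in all, a signal in data that the coverage comparisons do not use. The read-count tests did include chromosomes X and Y, in their normalisation, their FDR and their shares of all tested regions. The H3K27me3 island length on chromosome X reached 60.2 Mb in neurosphere cKO replicate 2. It was 25.5 and 0.243 Mb in hippocampus Ctrl, 0.17 and 0.376 Mb in hippocampus cKO, 37.4 and 28.5 Mb in neurosphere Ctrl, and 1.32 Mb in neurosphere cKO replicate 1. The libraries thus differed in chromosome X signal within genotypes as well as between them, and the part of this in the autosomal results was not tested. Groups of 2 libraries are too small for a check of single outlying libraries.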

How the results depend on the processing

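The number of intergenic regions was 30788. It became 59903 with an island in either library, 16335 with islands of at least 2 kb, and 48891 to 52416 from a single Ctrl library. The other rules tried gave 22505 to 31991, including 22821 from the cKO libraries, a rule added after seeing the data.

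The cKO minus Ctrl coverage ranged, leaving out 1 library, from -1.19 to 5.85 for hippocampus H3K36me2, from -3.74 to 4.78 for neurosphere H3K27me3, from -5.44 to 14.2 for hippocampus H2AK119ub1 and from -7.98 to 9.12 for neurosphere H2AK119ub1. It turned to -2.06 (H3K27me3) and -0.409 (H2AK119ub1) in neurospheres at equal covered length, and to -0.564 for the latter as a mean over regions. At equal covered length the hippocampus differences shrank to 0.482 (H3K36me2), 0.430 (H3K27me3) and 0.0329 (H2AK119ub1). As a share of the covered length, added after seeing the data, it was -0.375 for hippocampus H3K36me2, and -0.752 and -0.626 for neurosphere H3K27me3 and H2AK119ub1.

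Against other intergenic sequence, leaving out 1 library gave 22.2 to 32.1 points for H3K36me2, where 5 libraries cannot pass, and -0.519 to 0.955 for H3K27me3. The H2AK119ub1 difference from gene-overlapping regions was -0.399 in regions of 2 to 10 kb. The cause was not tested.

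Calls at an FDR of 0.05 at intergenic regions, 0 in edgeR, became 8, 30, 113 and 2 with the DESeq2 Wald test for hippocampus H3K36me2 and neurosphere H3K36me2, H3K27me3 and H2AK119ub1. Over all tested regions DESeq2 called 20, 83, 738 and 32. Leaving out 1 library gave 0 to 695, 0 to 382 and 0 to 123 in the last 3 and 0 elsewhere, with the lone library assumed to vary like the other group. The fits with the highest of these counts also made calls over all tested regions. The share called at intergenic regions was then below that of all tested for neurosphere H3K36me2 and H2AK119ub1. It was above that of all tested for neurosphere H3K27me3. With 1 library left in a group the spread of that group is not measured, so no conclusion is drawn from these counts. With the replicate number as a block the count was 0 in each comparison. Unadjusted calls with the block were 143, 79 and 26 in hippocampus (H3K36me2, H3K27me3, H2AK119ub1) and 503, 258 and 12 in neurospheres. The shares were 4.73%, 12.2% and 4.43% in hippocampus, against 4.76%, 11.3% and 2.8% of all tested. In neurospheres they were 3.22%, 19.5% and 0.953%, against 3.13%, 13.8% and 1.3%. Deviations of same-numbered libraries correlated at -0.322 to 0.327, so the numbers were not taken as pairs. A crossed pairing was added after seeing the data for neurosphere H3K27me3 and H2AK119ub1. It gave 0 calls in each at an FDR of 0.05. Unadjusted calls were 370 and 24 at intergenic regions, against 2382 and 141 over all tested.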
